A study of Mus musculus with 7 samples.

Results

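Retinoic acid is a small signalling molecule made from vitamin A, and 10 genes that make it, bind it, break it down or receive it were followed in oligodendroglia from mouse brain. The 10 genes were taken by name: the synthesis genes Aldh1a1, Aldh1a2 and Aldh1a3, the breakdown gene Cyp26b1, the binding protein genes Crabp1 and Crabp2, and the receptor genes Rara, Rarb, Rarg and Rxrg. They are 10 of the 49315 genes in the tables, and 9 of them had enough reads to enter the fit across 16616 genes. They were chosen by name with their levels and fold changes between Sox9-tg and control libraries already known, so these are the values that chose them. Their values and folds are therefore given as a description, with no p-value, and support nothing about the pathway as a whole.

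Total RNA was sequenced from Sox9-tg cells, which overexpressed the transcription factor Sox9 (4 libraries), and from control cells of genotype Sox9-wt (3 libraries). The labels describe both groups as oligodendroglia derived from brain, and the series title places them among NG2 glia, the dividing progenitors of oligodendrocytes, of the early postnatal period. The labels call the libraries of each group biological replicates. They do not say which promoter drives the Sox9 transgene, how the cells were isolated or how old the animals were in days. Whether the replicates came from separate animals or separate cultures is not said either. How far the spread between libraries reflects differences between animals is therefore not known. Libraries held 15768472 to 30507326 counts. Levels are in CPM, counts scaled to a common library size after TMM normalisation. Values after ± are SD over 4 Sox9-tg or 3 control libraries, and a positive log2 fold change, given with its standard error (SE), means a higher level in Sox9-tg. Sox9 itself stood at 2207 to 3597 CPM in Sox9-tg and 239 to 353 CPM in control libraries, so all 7 libraries matched their labels in it. All 8 listed NG2 glia markers, Pdgfra and Cspg4 among them, were detected in every library and all 8 were higher in Sox9-tg, with summed levels of 6224 to 9775 CPM in Sox9-tg and 1981 to 2494 CPM in control libraries. Markers of microglia (54.1 to 307 CPM summed in Sox9-tg, 103 to 715 CPM in control) and of endothelial cells and pericytes (13.5 to 43.7 CPM in Sox9-tg, 9.96 to 174 CPM in control) were highest in the library numbered 2 of each group. Of these, 0 of the 8 microglial and 0 of the 7 tested vascular markers passed the threshold. All the tested ones had a negative log2 fold change, with a median of -1.46 for microglial and -1.79 for vascular markers.

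Retinol is first oxidised to retinaldehyde, and the ALDH1A dehydrogenases turn this into retinoic acid. CRABP proteins carry the acid within the cell, CYP26 enzymes oxidise it to inactive forms, and what remains activates the receptor RAR. RAR binds DNA as a pair with RXR at direct repeats of a short hexamer and switches target genes on. In the developing forebrain, retinoic acid made in the meninges and the ventral forebrain guides striatal development, and in the oligodendrocyte lineage RXR gamma is known as a positive regulator of differentiation.

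RefSeq promoters (GRCm38.p6, 250 bases before to 50 bases after a start) were found for 8 of the 10 genes, as 14 promoters; Aldh1a3 and Crabp2 had none in the table used. Each was searched on both strands for the receptor hexamer AGGTCA and its common variants (the variant AGTTCA, the variant GGGTCA and the variant GGTTCA), for pairs of them in direct repeat, for the SOX core letters ACAATG or their variant ACAAAG, and for the TATA box letters TATAAA. Capitals below mark every match. The first sequence is shown because it holds the paired hexamers that a retinoic acid receptor is known to bind, the second because its gene had the largest fold change of the 10, and the third because it holds 2 hexamers with no repeat spacing.
Rarb, chr14:16575427-16575726, minus strand: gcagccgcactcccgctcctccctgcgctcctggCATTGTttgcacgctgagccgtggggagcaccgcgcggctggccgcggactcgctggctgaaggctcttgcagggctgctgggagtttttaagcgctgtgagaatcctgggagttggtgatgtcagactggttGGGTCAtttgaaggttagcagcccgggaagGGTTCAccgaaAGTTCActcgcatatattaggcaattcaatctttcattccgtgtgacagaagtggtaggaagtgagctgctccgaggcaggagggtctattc
Cyp26b1, chr6:84593761-84594060, minus strand: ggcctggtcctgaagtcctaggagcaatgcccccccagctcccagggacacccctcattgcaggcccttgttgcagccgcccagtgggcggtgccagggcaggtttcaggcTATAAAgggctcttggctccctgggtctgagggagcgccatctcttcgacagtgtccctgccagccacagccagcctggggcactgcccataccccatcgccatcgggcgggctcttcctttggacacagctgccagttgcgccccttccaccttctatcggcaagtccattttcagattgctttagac
Rxrg, chr1:167618015-167618314, plus strand: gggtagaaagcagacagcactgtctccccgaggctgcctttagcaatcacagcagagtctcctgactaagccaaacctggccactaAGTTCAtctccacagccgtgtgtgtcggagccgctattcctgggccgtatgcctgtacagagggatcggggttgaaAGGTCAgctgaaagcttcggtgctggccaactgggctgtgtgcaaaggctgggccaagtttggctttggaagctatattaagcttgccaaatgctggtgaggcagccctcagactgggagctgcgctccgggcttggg
In Rarb, the hexamer GGTTCA began 53 bases before the start and the hexamer AGTTCA began 42 bases before it, with 5 bases between them, an arrangement present in 0.0974% of 32851 promoters. None of the other 13 promoters of these genes held a direct repeat with a spacer of 1, 2 or 5 bases. A single hexamer is common, at 43.7% of all promoters, as is a SOX core match, at 28.6%, which was present in Rarb, in the start of Aldh1a1 at chr19:20492333-20492632 and in 1 start of Rara. Cyp26b1 held neither, and a TATA box match began 139 bases before its listed start, as 13.6% of all promoters hold one. These are matches of letters only.

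Of the 9 genes tested, 8 passed an adjusted p threshold of 0.05 in edgeR's quasi-likelihood fit over all genes, 3 higher (Cyp26b1, Rarg and Aldh1a1) and 5 lower (Aldh1a3, Crabp1, Rxrg, Crabp2 and Rarb) in Sox9-tg libraries. Across all 16616 genes 13.5% passed, 7.69% higher and 5.86% lower. The groups did not overlap for the same 8 genes, against 24.5% of all genes. Rara was the gene that did not pass, and Aldh1a2 was too scarce to test. Since the genes were picked with these values known, the counts say nothing beyond their own size. Their median log2 fold change was -1.25, against -0.01 over all genes tested, and their range was -2.94 to 4.24.

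**Figure D1:**
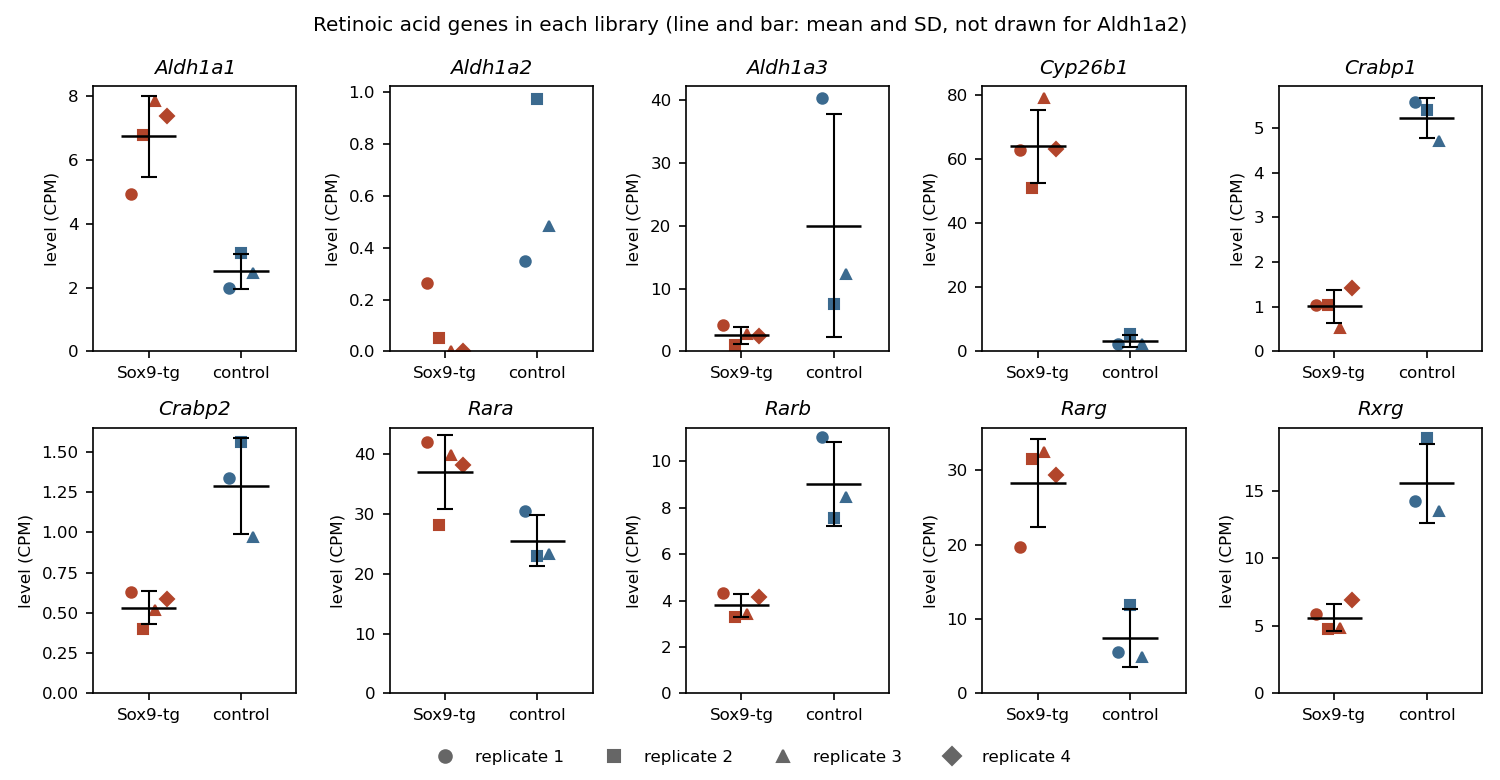
Level in CPM (vertical axis, linear, from 0) of each of the 10 genes in 4 Sox9-tg and 3 control libraries, with marker shape giving the replicate number and black lines the mean and SD. Cyp26b1 sits at 50.9 to 78.9 CPM in Sox9-tg and 2.21 to 5.43 CPM in control libraries, and only Rara has overlapping groups.

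The synthesis enzymes moved apart. Aldh1a1 (ENSMUSG00000053279, GRCm38 chromosome 19, 20492715 to 20643465, plus strand), a cytosolic retinaldehyde dehydrogenase, stood at 4.94, 6.78, 7.86 and 7.37 CPM in Sox9-tg libraries 1 to 4, against 1.98, 3.09 and 2.46 CPM in control libraries 1 to 3. Every Sox9-tg library lay above every control library, and the log2 fold change was 1.42 (SE 0.27). Without control replicate 3 the gene no longer passed (log2 fold change 1.40). Its near copy Aldh1a7, which lies beside it in the mouse genome, had 3 to 5 counts in Sox9-tg and 1 to 2 counts in control libraries, and 1 of the 4934 different stretches of 100 bases in Aldh1a1 transcripts occurs in Aldh1a7.

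Aldh1a3 (ENSMUSG00000015134, chromosome 7, 66390890 to 66427517, minus strand) is the ALDH1A enzyme known from the ventral forebrain. It stood at 4.20, 0.948, 2.77 and 2.44 CPM in Sox9-tg libraries, against 40.3, 7.48 and 12.3 CPM in control libraries. All 4 Sox9-tg libraries were below the lowest control library, but control replicate 1 was far above the other two. The log2 fold change was -2.94 (SE 0.62), the largest fall of the 10 genes, and 17 of the 16616 genes tested had one at or below it. Without control replicate 1 it was -1.92 and did not pass, and with limma-voom (-2.62) it did not pass either. In bulk RNA, fewer cells of a type and less RNA per cell cannot be told apart, here or in the values that follow.

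Aldh1a2 (ENSMUSG00000013584, chromosome 9, 71215789 to 71296243, plus strand), the main retinoic acid enzyme of the meninges, had 5, 1, 0 and 0 counts in Sox9-tg libraries, against 6, 30 and 15 counts in control libraries. The counts of 0 allow up to 0.193 CPM in Sox9-tg library 3 and 0.146 CPM in library 4, taking 3 counts as the limit and covering counting error only. The gene fell under the filter on low counts, and no fold is given for it. Of 12 meningeal fibroblast markers, 9 were tested: Lum passed higher and Islr passed lower. The median log2 fold change of the 9 was -0.91, with a range of -2.20 to 4.61, the highest being Lum. The summed level of the 12 was 20.3 to 63.2 CPM in Sox9-tg and 27.9 to 105 CPM in control libraries. Control library 2, the library with the most Aldh1a2, also had the highest sum. Sox9-tg library 2 had the next highest sum, at 63.2 CPM, with 1 Aldh1a2 count and the lowest Crabp2 level of all libraries (0.399 CPM). Igf2 was the largest part of both sums, at 36.4 CPM in control library 2 and 27.1 CPM in Sox9-tg library 2. Single markers differed between these libraries: Lum stood at 0.325 CPM in control library 2 and 6.88 CPM in Sox9-tg library 2. Slc6a13 had 48 counts in control library 2 and 1 count in Sox9-tg library 2. The part of meningeal fibroblasts in the Aldh1a2 and Crabp2 values was not tested.

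Per kilobase of exon, the 3 ALDH1A genes together stood at 1.601 to 2.19 CPM per kb in Sox9-tg and 2.68 to 9.28 CPM per kb in control libraries. Aldh1a1 made up 49.4, 85.8, 72.6 and 73.9% of that sum in Sox9-tg libraries 1 to 4, against 4.31, 23.4 and 14.8% in control libraries 1 to 3. Aldh1a3 made up 12.8 to 44.9% in Sox9-tg and 60.5 to 94.0% in control libraries. The most abundant ALDH1A transcript was thus Aldh1a1 in each Sox9-tg library and Aldh1a3 in each control library.

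Among the 9 genes tested, the breakdown gene had the largest fold change. Cyp26b1 (ENSMUSG00000063415, chromosome 6, 84571414 to 84593908, minus strand), a cytochrome P450 that clears retinoic acid and protects tissues from it, stood at 63.0, 50.9, 78.9 and 63.1 CPM in Sox9-tg libraries, against 2.21, 5.43 and 2.33 CPM in control libraries. The lowest Sox9-tg library was well above the highest control library, which was control replicate 2. The log2 fold change was 4.24 (SE 0.34), or 18.9-fold, and 44 of the genes tested, itself included, had one at least as large. It passed with each library left out in turn and was 4.92 without both libraries numbered 2. The related genes Cyp26a1 and Cyp26c1 were nearly silent. Cyp26a1, which is induced by retinoic acid in many cell types, had 14, 2, 5 and 9 counts in Sox9-tg libraries, against 0, 0 and 1 counts in control libraries; it was below the filter and had an edgeR adjusted p of 0.0311 when no filter was used. Cyp26c1 had at most 2 counts in any library.

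The binding proteins were lower. Crabp1 (ENSMUSG00000032291, chromosome 9, 54764748 to 54773110, plus strand), a carrier that is known to bring retinoic acid to its breakdown, stood at 1.05, 1.05, 0.515 and 1.41 CPM in Sox9-tg libraries, against 5.58, 5.40 and 4.72 CPM in control libraries. Control libraries were close to each other and all above the Sox9-tg libraries, with a log2 fold change of -2.36 (SE 0.34). The Crabp1 levels rest on 8 to 29 counts in Sox9-tg and 96 to 166 counts in control libraries. Crabp2 (ENSMUSG00000004885, chromosome 3, 87948666 to 87953376, plus strand), the carrier known to deliver retinoic acid to its receptors in the nucleus, stood at 0.630, 0.399, 0.515 and 0.586 CPM in Sox9-tg libraries, against 1.34, 1.56 and 0.970 CPM in control libraries. These Crabp2 levels rest on 8 to 12 counts in Sox9-tg and 23 to 48 counts in control libraries, and the log2 fold change of -1.27 (SE 0.35) was just inside the threshold. Its call was lost on leaving out any of control replicates 1, 2 and 3 (-1.22, -1.09 and -1.43) or Sox9-tg replicates 2, 3 and 4 (-1.13, -1.24 and -1.31), with DESeq2 (-1.27), with limma-voom (-1.21), with no filter (-1.25) or without both libraries numbered 2 (-0.96).

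Fabp5, which carries retinoic acid to the receptor PPAR delta, fell to 91.4 ± 10.02 CPM in Sox9-tg libraries, against 205 ± 17.6 CPM in control libraries (log2 fold change -1.17, SE 0.12, edgeR adjusted p = 0.000744). Fabp7, its relative in neural progenitors, stood at 1410 ± 278 CPM in Sox9-tg and 1183 ± 316 CPM in control libraries and did not pass.

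Among the 4 receptor genes, Rarg was higher, Rarb and Rxrg were lower, and Rara did not pass. Rarg (ENSMUSG00000001288, chromosome 15, 102234938 to 102257517, minus strand), the receptor RAR gamma, known from skin and cartilage, stood at 19.6, 31.5, 32.5 and 29.4 CPM in Sox9-tg libraries, against 5.52, 11.9 and 4.95 CPM in control libraries. Sox9-tg replicate 1 was the lowest of its group and still above the highest control library, replicate 2, and the log2 fold change was 1.91 (SE 0.33). Rara (ENSMUSG00000037992, chromosome 11, 98927818 to 98974942, plus strand), the broadly expressed RAR alpha, stood at 42.1, 28.1, 39.9 and 38.3 CPM in Sox9-tg libraries, against 30.5, 22.9 and 23.3 CPM in control libraries. Sox9-tg replicate 2 lay below control replicate 1, and the log2 fold change of 0.54 (SE 0.17) was just outside the threshold; it was inside with DESeq2 (0.54), without Sox9-tg replicate 2 (0.67) and without both libraries numbered 2 (0.60).

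Rarb (ENSMUSG00000017491, chromosome 14, 16430839 to 16819156, minus strand), the receptor RAR beta, is itself a known target of retinoic acid through the paired hexamers printed above. It stood at 4.31, 3.29, 3.41 and 4.15 CPM in Sox9-tg libraries, against 11.0, 7.54 and 8.47 CPM in control libraries. The groups were separate, and the log2 fold change was -1.25 (SE 0.22). Exons of Top2b on the opposite strand cover 34.1% of the exon bases of Rarb, and whether strand was used in counting is not given in the sources used here, so Rarb is less certain than the others. Top2b stood at 365 ± 38.9 CPM in Sox9-tg and 394 ± 96.9 CPM in control libraries and did not pass.

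Rxrg (ENSMUSG00000015843, chromosome 1, 167598384 to 167639623, plus strand), the receptor RXR gamma, stood at 5.88, 4.79, 4.83 and 6.93 CPM in Sox9-tg libraries, against 14.2, 18.9 and 13.5 CPM in control libraries. The groups were separate, with control replicate 2 the highest of all, and the log2 fold change was -1.47 (SE 0.20). Of 8 oligodendrocyte markers 7 were tested, 6 of them higher and none lower, with summed levels of 792 to 4872 CPM in Sox9-tg and 145 to 289 CPM in control libraries. Mog did not pass, at 3.56 ± 0.586 CPM in Sox9-tg and 4.77 ± 1.15 CPM in control libraries (log2 fold change -0.42). Mobp, with 2 to 25 counts in a library, was not tested. The part of oligodendrocytes in the Rxrg values was not tested.

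Shares within the receptor families differed between the groups as well. Per kilobase of exon, the 3 RAR genes together stood at 14.5 to 17.4 CPM per kb in Sox9-tg and 8.10 to 10.4 CPM per kb in control libraries. Rarg made up 30.6, 51.1, 43.8 and 41.9% of that sum in Sox9-tg libraries, against 12.5, 29.4 and 14.3% in control libraries. Rarb made up 3.72 to 5.43% in Sox9-tg and 15.1 to 20.2% in control libraries, and Rara 44.5 to 64.0% in Sox9-tg and 55.4 to 67.3% in control libraries, where the groups overlap.

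Among the RXR genes, Rxrg is the specialised one and had the lowest CPM in each library. Per kilobase of exon, it was also the scarcest in each Sox9-tg library, but not in each control library. There its share of the summed RXR level exceeded that of Rxra in control replicates 1 (15.6 against 14.9%) and 2 (20.7 against 16.6%). In control replicate 3 the share of Rxrg was below that of Rxra (13.6 against 15.1%). Rxra rose to 46.6 ± 3.59 CPM in Sox9-tg libraries, against 34.7 ± 2.09 CPM in control libraries (log2 fold change 0.42, SE 0.11, edgeR adjusted p = 0.0340), a call that was lost without Sox9-tg replicates 3 or 4 (adjusted p = 0.111 and 0.118), without control replicates 1, 2 or 3 (0.141, 0.0714 and 0.138), and under total counts (0.0692), upper-quartile factors (0.0519) or no filter (0.0721). Rxrb, the most abundant of them, stood at 122 ± 12.96 CPM in Sox9-tg and 110 ± 11.5 CPM in control libraries and did not pass (edgeR adjusted p = 0.521). Rxrg made up 4.61 to 6.84% of the summed RXR level per kilobase in Sox9-tg and 13.6 to 20.7% in control libraries, while that sum stood at 37.5 to 45.6 CPM per kb in Sox9-tg and 39.7 to 43.2 CPM per kb in control libraries.

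**Figure D2:**
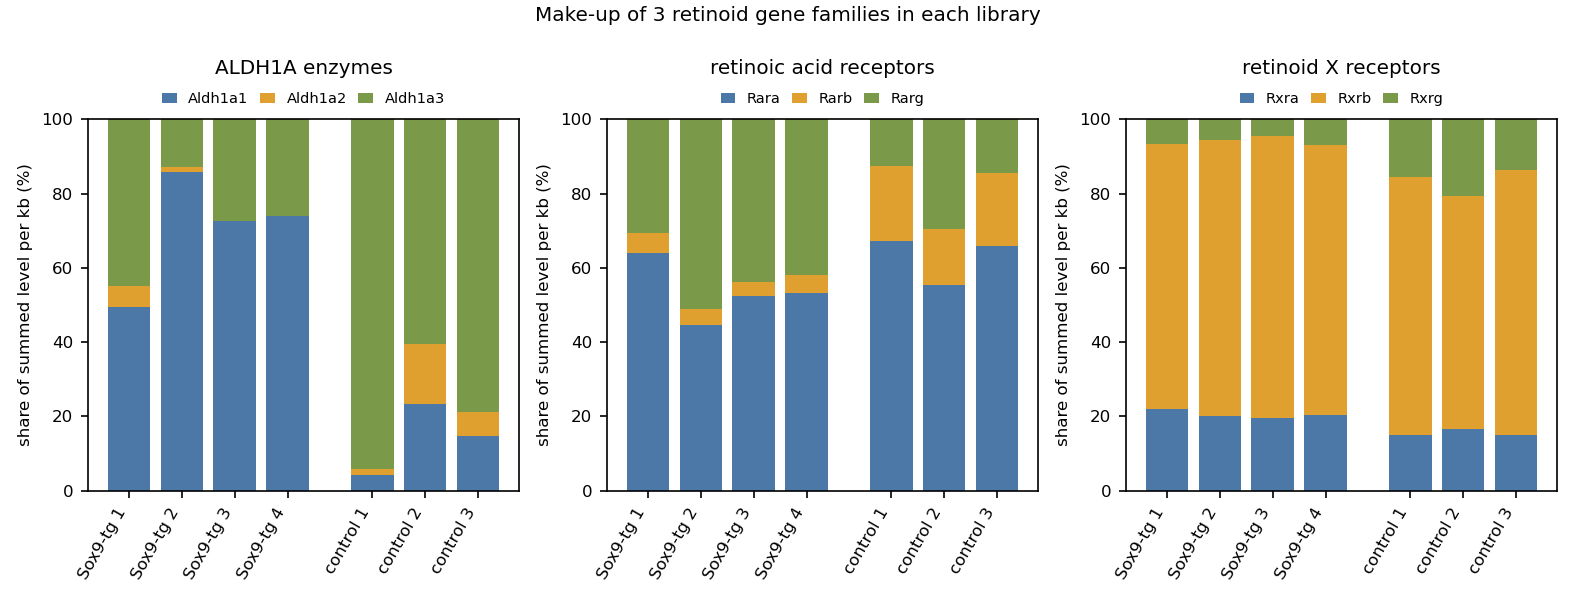
Share of each gene (vertical axis, percent) in the summed level per kilobase of exon of its family, 1 bar for each of the 4 Sox9-tg and 3 control libraries. Aldh1a1 fills 49.4 to 85.8% of the ALDH1A bar in Sox9-tg and 4.31 to 23.4% in control libraries, Rarg 30.6 to 51.1% of the RAR bar in Sox9-tg and 12.5 to 29.4% in control libraries, and Rxrg 4.61 to 6.84% of the RXR bar in Sox9-tg and 13.6 to 20.7% in control libraries.

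The order of the 10 genes by level per kilobase of exon differed between the groups. In Sox9-tg cells it ran Cyp26b1 (11.95 ± 2.14 CPM per kb), Rara (8.50 ± 1.42), Rarg (6.63 ± 1.39), Rxrg (2.44 ± 0.442), Aldh1a1 (1.36 ± 0.259), Crabp1 (1.26 ± 0.462), Rarb (0.720 ± 0.0971), Aldh1a3 (0.561 ± 0.289), Crabp2 (0.403 ± 0.0762) and Aldh1a2 (0.0345 in the mean). There the ranges of neighbours overlapped except between Rarg and Rxrg, Rxrg and Aldh1a1, and Crabp2 and Aldh1a2. In control cells it ran Rxrg (6.78 ± 1.28), Crabp1 (6.52 ± 0.563), Rara (5.85 ± 0.974), Aldh1a3 (4.34 ± 3.84), Rarg (1.75 ± 0.905), Rarb (1.71 ± 0.345), Crabp2 (0.975 ± 0.225), Cyp26b1 (0.621 ± 0.341), Aldh1a1 (0.508 ± 0.113) and Aldh1a2 (0.266 ± 0.145), and the ranges of neighbours overlapped except between Rarb and Crabp2. Cyp26b1 thus stood first of 10 in Sox9-tg cells and eighth in control cells.

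Other genes of the pathway came from textbook lists of synthesis and transport, breakdown, receptors and binding proteins, RXR partners, co-regulators and response genes. Of 81 such genes 59 were tested, of which 4 rose and 6 fell, or 16.9% against 13.5% of all genes. Their median log2 fold change was -0.08. The lists were written with earlier results of these data known, so these shares and those of single lists are a description only.

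Of 14 tested synthesis and transport genes, 1 rose and 1 fell. Rdh5, a retinol dehydrogenase known from the eye, fell to 2.85 ± 0.460 CPM in Sox9-tg libraries, against 6.96 ± 3.35 CPM in control libraries (-1.29, SE 0.34, edgeR adjusted p = 0.0358). The call of Rdh5 was lost without control replicates 2 or 3 (edgeR adjusted p = 0.0993 and 0.0875) or Sox9-tg replicates 2, 3 or 4 (0.0566, 0.103 and 0.101). Rdh5 stood at a log2 fold change of -0.84 once control replicate 2 was left out.

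Rdh10 and Dhrs3 did not pass. Rdh10, which makes retinaldehyde, stood at 18.9 ± 2.41 CPM in Sox9-tg and 15.1 ± 2.44 CPM in control libraries (edgeR adjusted p = 0.243). Dhrs3, which reduces it back to retinol, stood at 11.4 ± 1.38 CPM in Sox9-tg and 16.3 ± 8.37 CPM in control libraries (edgeR adjusted p = 0.300). The log2 fold change of Dhrs3 was -0.52, but -0.0069 without control replicate 2. The retinol importer Stra6 stood at 3.52 ± 1.37 CPM in Sox9-tg and 6.28 ± 1.82 CPM in control libraries (edgeR adjusted p = 0.154, or 0.0283 without Sox9-tg replicate 1). In the breakdown list, Cyp1b1, a cytochrome P450 that oxidises retinoids among other substrates, fell to 1.19 ± 0.147 CPM in Sox9-tg libraries, against 6.47 ± 2.49 CPM in control libraries (-2.44, SE 0.33, edgeR adjusted p = 0.00216).

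Of 12 tested RXR partners, Nr2c1, an orphan receptor, rose to 24.5 ± 1.51 CPM in Sox9-tg libraries, against 18.1 ± 1.21 CPM in control libraries (log2 fold change 0.44, SE 0.12, edgeR adjusted p = 0.0373), and no partner fell. The adjusted p of Nr2c1 was 0.0706 to 0.104 without any 1 of 6 libraries, all but Sox9-tg replicate 1, and 0.0509 under total counts, 0.0518 under upper-quartile factors and 0.0832 with no filter. Of 15 co-regulators, Zfp423, a zinc-finger protein known to be needed for retinoic acid signalling, fell to 24.3 ± 0.751 CPM in Sox9-tg libraries, against 38.7 ± 8.09 CPM in control libraries (log2 fold change -0.67, SE 0.14, edgeR adjusted p = 0.0165, or 0.0503 without Sox9-tg replicate 4 and 0.0607 on leaving out control replicate 3).

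Of 25 retinoic acid response genes 14 were tested, with 1 higher and 2 lower, or 21.4% against 13.5% of all genes. Their median log2 fold change was -0.53, against -0.01 over all genes tested. Tgm2, the tissue transglutaminase, rose to 8.57 ± 4.50 CPM in Sox9-tg libraries, against 1.36 ± 1.22 CPM in control libraries (2.63, SE 0.63, edgeR adjusted p = 0.0256). Its log2 fold change was 3.71 without control replicate 2, and its call was lost without control replicates 1 or 3 (adjusted p = 0.0821 and 0.0922) or Sox9-tg replicate 3 (0.0533). The homeodomain factor Meis2 fell to 231 ± 74.9 CPM in Sox9-tg libraries, against 595 ± 203 CPM in control libraries (-1.37, SE 0.32, edgeR adjusted p = 0.0238), a call lost without control replicates 1 or 3 (0.0955 and 0.104) or Sox9-tg replicates 3 or 4 (0.0666 and 0.0608). Its partner Pbx3 fell to 21.4 ± 4.75 CPM in Sox9-tg libraries, against 61.7 ± 20.8 CPM in control libraries (-1.53, SE 0.26, edgeR adjusted p = 0.00647).

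**Figure D3:**
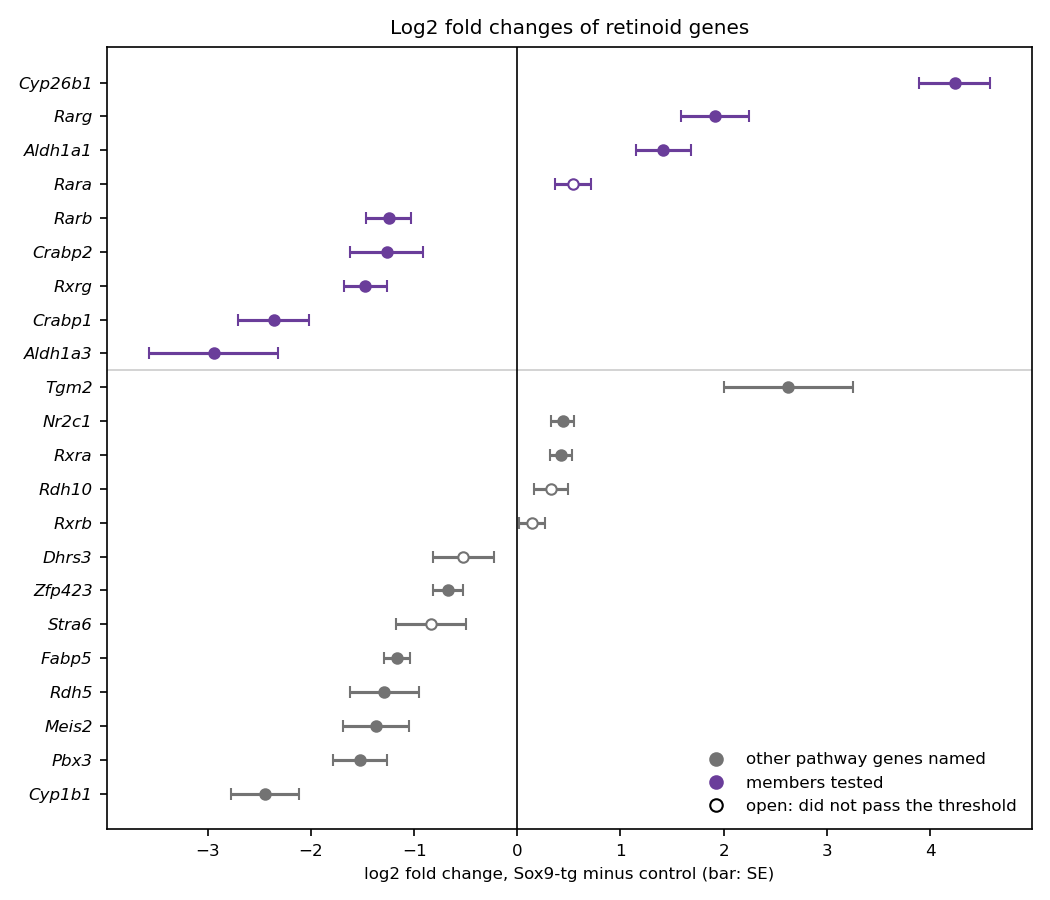
Log2 fold change of Sox9-tg minus control (horizontal axis, bars 1 SE) for the 9 tested genes of the 10 (above the line) and the other pathway genes named (below it), with open markers for genes that did not pass the threshold. Cyp26b1 at 4.24 and Aldh1a3 at -2.94 are the extremes.

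Markers of striatal neurons and their precursors, cells in which Rarb, Rxrg, Crabp1 and Aldh1a3 are known to be expressed, were lower in Sox9-tg libraries, as were these 4 genes. Of 12 such markers, all tested, 8 fell, among them Drd2, Adora2a, Isl1, Ebf1, Foxp1, Penk and Gad2, and none rose. Their summed level was 153 to 360 CPM in Sox9-tg and 411 to 719 CPM in control libraries. Within the control group this sum was lowest in replicate 2. Aldh1a3 (7.48 CPM) and Rarb (7.54 CPM) were lowest of the control libraries there too. Rxrg (18.9 CPM) was highest there, and Crabp1 (5.40 CPM) lay between the other control libraries. None of the 12 markers was at 0 in any library. Drd1, the scarcest, stood at 0.537 to 0.966 CPM in Sox9-tg and 0.697 to 1.197 CPM in control libraries. Of 8 general neuronal markers 4 fell, with summed levels of 1664 to 3211 CPM in Sox9-tg and 2644 to 4263 CPM in control libraries. Of 8 astrocyte markers, all tested, 3 fell (Aqp4, Slc1a2 and Gja1, with log2 fold changes of -2.36, -1.20 and -1.12) and 1 rose, which was Sox9 itself. The summed level of the 8, Sox9 included, was 3666 to 5407 CPM in Sox9-tg and 2392 to 4250 CPM in control libraries. Sox9 alone gave 2207 to 3597 CPM of it in Sox9-tg and 239 to 353 CPM in control libraries. The part of neurons or astrocytes in the lower values of the retinoid genes was not tested.

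The genes nearest in pattern were sought for the largest rise and the largest fall, as the smallest root-mean-square difference of centred log2 CPM over the 7 libraries among 13436 other genes. For Cyp26b1 they were Sntb1, a syntrophin (0.318), Rgr, an opsin of the retinal pigment epithelium that binds retinaldehyde (0.333), and Mitf, a melanocyte and pigment epithelium transcription factor (0.459), where the median gene differed by 2.20. Rgr stood at 4.59 to 6.77 CPM in Sox9-tg and 0.174 to 0.260 CPM in control libraries, where 0.174 CPM in control replicate 1 is 3 counts. For Aldh1a3 they were Isl1, a transcription factor of striatal and other neurons (0.300), the growth factor gene Fgf3 (0.421) and Dio3, which inactivates thyroid hormone (0.477), where the median gene differed by 1.63. Like Aldh1a3, which held 40.3 CPM there, these 3 genes were highest in control replicate 1, with 41.3, 7.15 and 5.06 CPM, and lowest in Sox9-tg replicate 2, with 1.25, 0.249 and 0.249 CPM. This is a description of 7 libraries in 2 groups, and much of the likeness is the difference between the groups. The nearest genes were chosen on these same libraries, so the shared highest and lowest libraries follow from that choice.

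**Figure D4:**
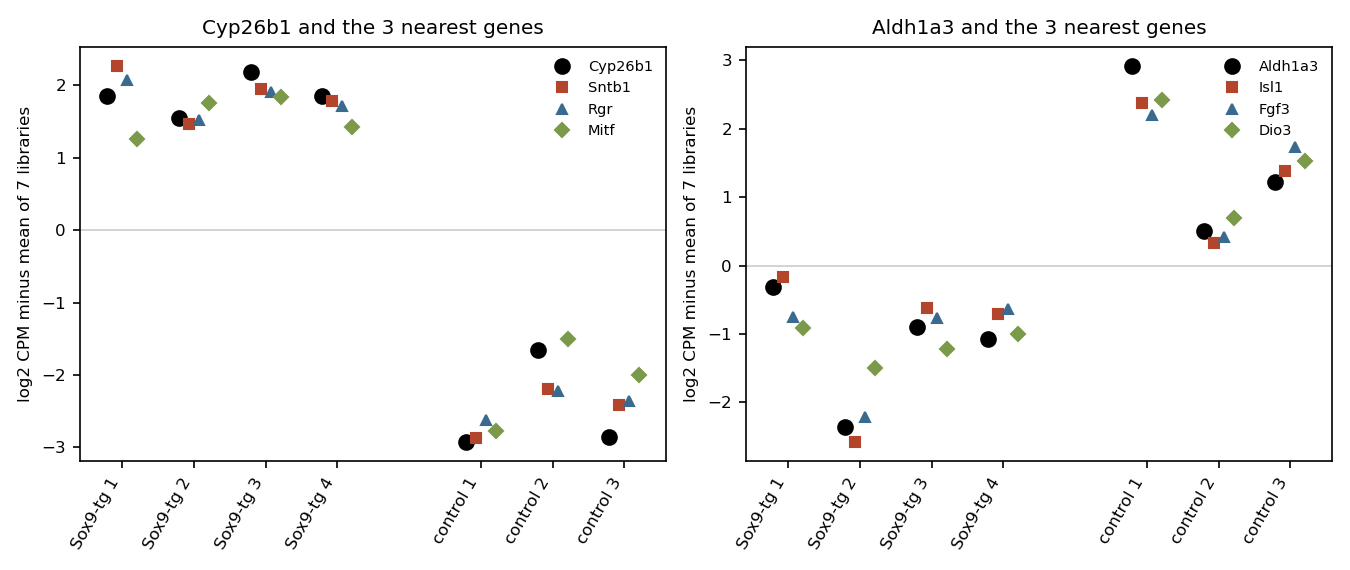
Log2 CPM minus the mean of the 7 libraries (vertical axis) for Cyp26b1 and Aldh1a3 and the 3 genes nearest to each, in 4 Sox9-tg and 3 control libraries. The genes near Cyp26b1 are high in each Sox9-tg library, and those near Aldh1a3 are highest in control replicate 1 and lowest in Sox9-tg replicate 2.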

How the data were processed

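Total RNA of 7 libraries was sequenced. The deposited values are raw read counts, 1 table a library, made by the authors. The submitters' processing notes name GRCm38 and list DESeq, DESeq2, Subread 1.5.2, featureCounts, STAR 2.5.2b and Trimmomatic 0.36. Settings, annotation release, use of strand and handling of multiply mapped reads: not given in the sources used here.

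Genes were filtered with filterByExpr (minimum count 10, minimum total count 15), leaving 16616 of 49315, and scaled by TMM. The test was edgeR 4.0.16's quasi-likelihood F test in R 4.3.3 on group alone. It was two-sided, p-values were adjusted by Benjamini and Hochberg over all genes tested, and the procedure was tested on simulated data. The SE is the log2 fold change divided by the square root of F. The biological coefficient of variation was 0.265, and 3 counts in a library were 0.0970 to 0.193 CPM. Positions and merged exon lengths came from GENCODE M21, which holds 49056 of the IDs. The 10 genes and all lists were chosen with earlier results of these data known. Named besides the 10 were pathway genes past the threshold (up to 6 per list and direction), a fixed few named whether or not they passed (Rxra, Rxrb, Rdh10, Dhrs3, Fabp5, Cyp26a1, Cyp26c1 and Stra6), and the 3 genes nearest in pattern to the largest rise and the largest fall, predicted and sex-linked genes left out; Fabp7, Aldh1a7, Top2b and the markers named were added after their values were seen. Alternatives were DESeq2 1.42.0, limma-voom (limma 3.58.1), other scalings and filters, a replicate block and each library left out. The pair of libraries numbered 2 was left out as an alternative chosen after seeing the data. Some genes within the counts are not reported here by name.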

Additional observations from a re-analysis of the deposited data

Results flagged for a closer look

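Stra6, the retinol importer, had a library far from the others: Sox9-tg replicate 1 stood at 5.57 CPM, where the other Sox9-tg libraries held 2.74, 3.03 and 2.73 CPM and control libraries 7.03, 7.61 and 4.21 CPM. The gap was 0.896 of the group's range, above Dixon's 95% critical value for 4 samples. It was the 1 flag among 26 genes examined, and chance flags about 1 in 20 groups.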

How the results depend on the processing

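None of the retinoid genes followed through the alternatives changed direction in any of them. Aldh1a2, Cyp26a1, Cyp26c1 and Fabp7 were not followed in this way. Cyp26b1, Rarg, Rarb, Rxrg and Crabp1 passed in every alternative, and the calls of Aldh1a1, Aldh1a3, Crabp2 and Rara depended on settings or libraries given with their values. Crabp2 was not tested under a filter of 1 CPM in 3 libraries. Of the 10 genes, 3 were called higher and 5 lower; with limma-voom 3 were called lower, and with 1 library left out 2 to 4 were higher and 3 to 5 lower. Other pathway genes numbered 4 higher and 6 lower, 2 higher with total counts or upper-quartile factors, and 0 to 8 higher and 3 to 8 lower with 1 library left out, the 0 arising without control replicate 3 or Sox9-tg replicate 3. Over all genes 2251 changed (1278 higher, 973 lower), or 965 to 3169 (575 to 1785 higher, 390 to 1384 lower) with 1 library left out and 3048 with DESeq2. Without both libraries numbered 2, Rdh5, Nr2c1 and Zfp423 also lost their calls (edgeR adjusted p = 0.109, 0.117 and 0.0583). Scalings moved the median of all genes by at most 0.05 on the log2 scale.

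Same-numbered libraries deviated together for pairs 1 and 2 (r = 0.317 and 0.613 across genes) but hardly for pair 3 (0.0703), and control 3 correlated best with Sox9-tg 1 (0.140), so the numbers are not taken to pair libraries. With a replicate block, 3109 genes changed (1600 higher, 1509 lower), 4 of the 10 genes were called in each direction, Rara higher (0.51) and Crabp2 no longer lower (-1.32); Rxra lost its call (edgeR adjusted p = 0.0626), and 6 other pathway genes were higher and 10 lower. Depth limits Aldh1a2, Crabp2, Cyp26a1 and Cyp26c1, which had under 50 counts in each library. It also limits Crabp1 in Sox9-tg libraries, with 8 to 29 counts.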
